A study of Homo sapiens with 3 samples.

Results

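Receptor tyrosine kinases are described here from the counts of 39 named genes among the 58735 genes of the table. The genes were chosen by name, as the family members on a fixed list, and all 39 had a row. RNA came from RPE-1, an established human line from retinal pigment epithelium made immortal by telomerase, in a derivative in which centrin 2 (CETN2) carries a GFP tag that marks centrioles and PLK4 stands under a doxycycline-inducible promoter driven by rtTA. All 3 libraries were made from poly(A) RNA of cells that received scramble siRNA and in which PLK4 was not induced, so they form 1 group and no comparison between conditions was possible. The labels do not say whether the libraries came from separate cultures, so p-values here speak of the spread among these samples alone, and that spread may be technical. In such bulk RNA, fewer cells of a type and less RNA per cell cannot be told apart.

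Receptor tyrosine kinases are membrane proteins that bind a growth factor or matrix protein outside the cell and carry a kinase domain inside it. Binding brings receptor chains together, the chains phosphorylate each other on tyrosines, and adaptor proteins docked on those tyrosines pass the signal to the RAS, PI3 kinase, PLC gamma and STAT routes. Some members, such as ERBB3, PTK7 and RYK, have kinase domains with little or no catalytic activity and work with partners. Several others are best known as marks of a cell type: KDR, TEK and TIE1 of endothelium, KIT, FLT3 and CSF1R of blood cells, MUSK of muscle, and NTRK2, NTRK3 and RET of neurons.

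The libraries held 49279692, 60040029 and 46625774 counts. Library 1 stood apart, with counts in 19953 genes against 24416 and 23050 in libraries 2 and 3. Its share of counts on 13 mitochondrial coding genes was 9.07%, against 5.19% and 5.71%. The common biological coefficient of variation was 0.135 with all libraries and 0.0601 without library 1, so results that rest on library 1 are also given without it. Levels are in CPM (counts scaled to library size with TMM factors) or, between genes, in RPKM (CPM per kilobase of annotated exons). A gene counted as detected when it reached a CPM of at least 1 in each library.

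Of the 39 receptor genes 18 were detected (46.2%), against 57.7% of the 19951 protein-coding genes. Another 16 had some counts but stayed below detection, and 5 had none in any library. The detected receptors had a median of 9.48 RPKM, against 6.09 RPKM for all detected protein-coding genes, and 11 of the 18 lay above that median. The last receptor inside the detection limit was MST1R (1.24, 1.19 and 1.24 CPM), and ERBB3 was outside it (1.11, 0.757 and 0.705). The levels were uneven. AXL alone held 46.0 ± 0.307% (SD, n = 3) of the summed RPKM of the family, and AXL, MET, DDR2, PTK7 and DDR1 together held 75.9 ± 0.495%. All 39 genes together took 0.242 ± 0.0180% of the counts (SD, n = 3).

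**Figure D1:**
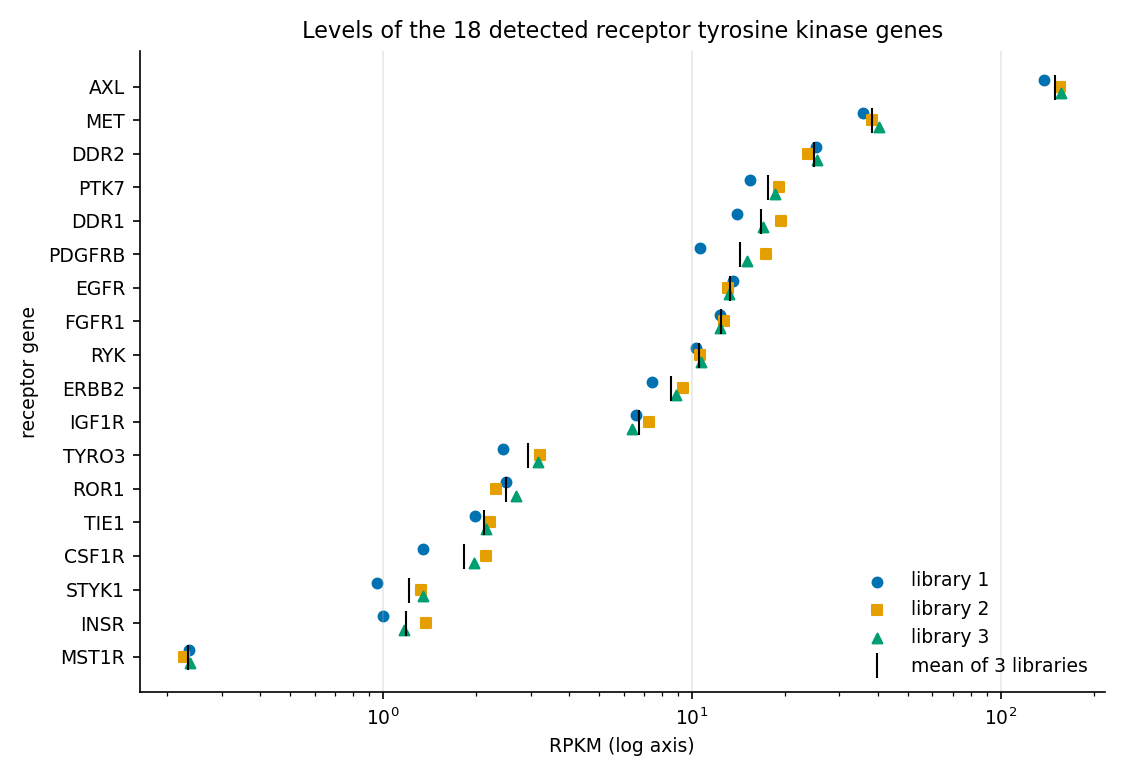
RPKM of the 18 detected receptor genes on a log axis, with 1 symbol per library and a vertical tick at the mean of 3 libraries. AXL stands apart at a mean of 150.1 RPKM, MET follows at 38.2, and MST1R is lowest at 0.232.

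AXL and TYRO3, of the TAM family that binds the vitamin K-dependent proteins GAS6 and protein S, were both expressed, with AXL far above TYRO3. AXL (ENSG00000167601, chromosome 19, 41219203 to 41261766, hg38) stood at 138, 156 and 156 RPKM in libraries 1, 2 and 3, a mean of 150.1 ± 10.3 (SD, n = 3). That level was at the 98.5 percentile of detected protein-coding genes and exceeded the next receptor, MET, 3.93-fold. TYRO3 stood at 2.44, 3.23 and 3.18 RPKM. Within libraries AXL exceeded TYRO3 51.2-fold (log2 ratio 5.68 ± 0.12 SD), in each of the 3. Libraries 2 and 3 lay close together for both genes and library 1 was lowest.

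MET, the receptor for hepatocyte growth factor, was the second most abundant, and its relative MST1R was the lowest detected member. MET (ENSG00000105976, chromosome 7, 116672390 to 116798386) stood at 35.8, 38.4 and 40.3 RPKM. MST1R, a relative of MET that binds the HGF-related factor MST1, stood at 0.235, 0.226 and 0.236 RPKM from 60, 72 and 58 counts. The values of MST1R lay within counting error of each other, and MET exceeded it 163-fold (log2 ratio 7.35 ± 0.09 SD). The exons of MST1R are overlapped by 6.78% on the opposite strand, by annotated genes that had no counts.

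The discoidin domain receptors DDR1 and DDR2 bind collagens, and both were among the 5 highest members. DDR2 (ENSG00000162733, chromosome 1, 162631373 to 162787400) stood at 25.2, 23.8 and 25.3 RPKM, a range narrower than that of DDR1 (13.9, 19.5 and 16.9). Per kilobase of annotated exons DDR1 was below DDR2 in 3 of 3 libraries (0.671-fold, log2 ratio -0.58 ± 0.28 SD). With the length of the longest protein-coding transcript in place of all annotated exons, the log2 ratio was 0.48 in favour of DDR1. The order of this pair therefore depended on the length used.

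Among the ERBB receptors, EGFR and ERBB2 were expressed and ERBB3 and ERBB4 were below detection. EGFR (ENSG00000146648, chromosome 7, 55019021 to 55211628), the receptor for EGF and related ligands, stood at 13.5, 13.03 and 13.2 RPKM, one of the narrowest spreads of the family. ERBB2, which binds no ligand and pairs with the other ERBB receptors, stood at 7.44, 9.36 and 8.87 RPKM. EGFR exceeded ERBB2 1.56-fold by annotated exons (log2 ratio 0.64 ± 0.20 SD) but not by the longest transcript (log2 ratio -0.12). ERBB2 exceeded ERBB3, a neuregulin receptor with a weak kinase, 90.5-fold. ERBB3 had 54, 46 and 33 counts and ERBB4, the other neuregulin receptor, had 31, 13 and 26. Genes on the opposite strand, MIEN1 and PGAP3, overlap 7.41% of the exons of ERBB2, and the strand setting of the counting is not given in the sources used here.

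One FGF receptor of 4 was detected. FGFR1 (ENSG00000077782) stood at 12.3, 12.7 and 12.3 RPKM, a spread as small as that of EGFR. FGFR3 had 17, 8 and 14 counts, FGFR4 had 18, 12 and 4, and FGFR2 had 0 in each library. At a count of 0 the upper limit was 3 counts, which is 0.0618 CPM in library 1, 0.0494 in library 2 and 0.0641 in library 3. With that floor in each library FGFR1 stood at least 1452-fold above FGFR2 per kilobase, and it exceeded FGFR4 306-fold (log2 ratio 8.26 ± 0.99 SD).

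Of the PDGF receptor class (PDGFRA, PDGFRB, KIT, CSF1R and FLT3), PDGFRB and CSF1R were detected. PDGFRB (ENSG00000113721, chromosome 5, 150113837 to 150155872), the receptor for PDGF-B and PDGF-D, stood at 10.6, 17.4 and 15.0 RPKM. PDGFRA, which also binds PDGF-A and PDGF-C, had 1, 23 and 17 counts, and 15.8% of its exon length is shared on the same strand with AC058822.1, listed at 0 counts. KIT, the stem cell factor receptor, and FLT3, a cytokine receptor of blood progenitors, had 0 counts in each library. CSF1R (ENSG00000182578, chromosome 5, 150053291 to 150113372), the receptor of macrophages for CSF1 and IL-34, stood at 1.35, 2.15 and 1.96 RPKM from 337, 673 and 473 counts.

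Of the vascular receptors TIE1 was detected and the others were not. TIE1 (ENSG00000066056, chromosome 1, 43300993 to 43323108), an orphan partner of the angiopoietin receptor TEK, stood at 1.99, 2.21 and 2.16 RPKM from 646, 900 and 675 counts. TEK had 43, 47 and 33 counts. Of the VEGF receptors, KDR had 75, 34 and 17 counts, FLT1 had 10, 3 and 0, and FLT4 had 0 in each library. KDR was highest in library 1, where its CPM of 1.55 passed 1, against 0.560 and 0.363 in libraries 2 and 3.

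IGF1R, the receptor for insulin-like growth factors, exceeded the insulin receptor INSR 5.75-fold (log2 ratio 2.52 ± 0.17 SD). IGF1R stood at 6.56, 7.26 and 6.40 RPKM and INSR at 0.999, 1.37 and 1.17. Their relative INSRR, an alkali-sensing receptor, had 6, 1 and 0 counts.

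Among the receptors of Wnt signalling and the relatives without an active kinase, PTK7 and RYK were high and ROR1 was moderate. PTK7 (ENSG00000112655, chromosome 6, 43076268 to 43161719), a Wnt co-receptor of planar cell polarity, stood at 15.4, 19.1 and 18.5 RPKM. RYK, a Wnt receptor, stood at 10.3, 10.6 and 10.7 RPKM and was 1.67-fold below PTK7 by annotated exons (log2 ratio 0.74 ± 0.14 SD). By the longest transcript that log2 ratio was smaller, 0.37. ROR1, which binds WNT5A, stood at 2.497, 2.32 and 2.70 RPKM, whereas its sister gene ROR2 had 0, 0 and 3 counts. STYK1, a kinase with a short extracellular part, stood at 0.957, 1.33 and 1.34 RPKM. MUSK, which is related to the ROR receptors and organises the neuromuscular junction, had 11, 19 and 15 counts.

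The neural and oncogenic fusion receptors were close to empty. NTRK2, the BDNF receptor, had 0 counts in each library, and NTRK3, the neurotrophin-3 receptor, had 0, 0 and 1. RET, the GDNF family receptor, had 2, 2 and 0 counts and ROS1 had 10, 4 and 7. ALK had 0, 15 and 2 counts, so 1 library held nearly all of them, and its relative LTK had 0, 0 and 3.

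**Figure D2:**
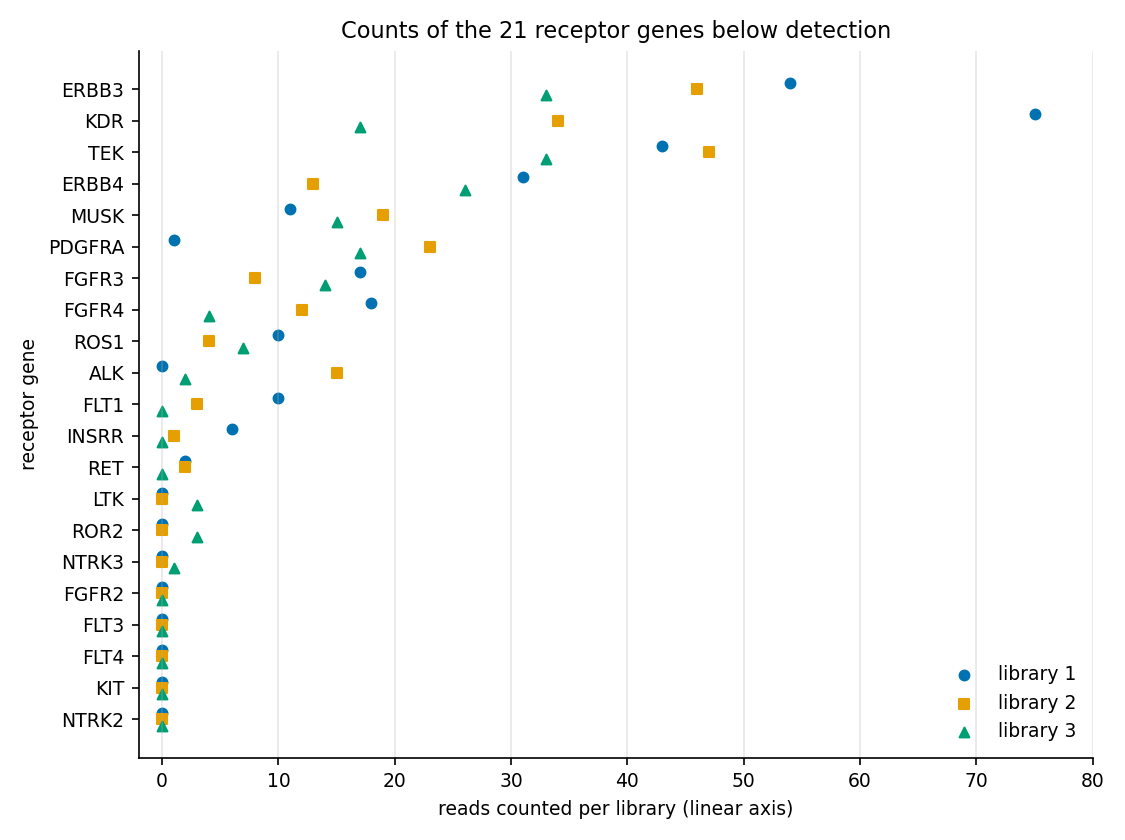
Reads counted in each library for the 21 receptor genes below detection, on a linear axis, with 1 symbol per library. KDR reaches 75 counts in library 1, ERBB3 and TEK lie between 33 and 54, and FGFR2, FLT3, FLT4, KIT and NTRK2 are at 0 in each library.

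In the order of RPKM levels, 6 of the 17 neighbouring pairs of detected receptors had ranges that overlapped between libraries. These were PTK7 and DDR1, DDR1 and PDGFRB, PDGFRB and EGFR, TYRO3 and ROR1, TIE1 and CSF1R, and STYK1 and INSR. The other neighbours, such as AXL and MET or IGF1R and TYRO3 (2.30-fold), did not overlap. Of the 13 pairs of relatives compared within libraries, NTRK2 and NTRK3 were both at or under the floor of 3 counts. The other 12 kept 1 order in all 3 libraries (exact two-sided sign-flip p = 0.25 for each, the smallest that 3 libraries allow). By the longest protein-coding transcript the top 5 were AXL (163), MET (40.5), PTK7 (37.3), DDR1 (36.9) and RYK (28.7), in RPKM of that length, with DDR2 at 26.2 in place 7. AXL and MET led by either length.

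CG-rich promoters were found among detected and undetected receptors alike, and the shares of both were not tested against each other. RefSeq (GRCh38.p14) promoter entries matched 34 of the 39 genes, and the 200 bases from 250 to 51 before the most upstream listed start were read for each. The entries of ERBB3, FGFR1, FLT4, INSRR and STYK1 were not used here. At least 10 CG pairs (the letters CG, which read the same on both strands) stood in 10 of 16 detected receptors (62.5%) and in 13 of 18 below detection (72.2%). Over all protein-coding genes the shares were 76.5% for detected genes and 33.2% for genes below detection, or 60.1% in all. The letters GGGCGG or their complement CCGCCC, which can overlap CG pairs, were present in 11 of 16 detected receptors and 12 of 18 below detection. For protein-coding promoters these shares were 55.6% for detected genes and 30.9% for genes below detection, or 46.3% in all. Some genes have several starts, and which start these cells used was not measured. For 28 of the 34 receptors the bases just after the listed start matched a GENCODE transcript of the gene, and for DDR2 and MET, among the windows shown, they did not.

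The following windows, written 5′ to 3′ on the gene's strand with each CG pair in capitals, were picked for contrast in level and CG pairs. They do not represent the family. AXL (chr19:41218973-41219172, plus strand, 2 listed starts) and DDR2 (chr1:162630613-162630812, plus strand, the first of 3 listed starts) were abundant with 3 and 0 CG pairs, and MET (chr7:116671946-116672145, plus strand) was abundant with 17. KIT (chr4:54657707-54657906, plus strand) and FGFR2 (chr10:121598495-121598694, minus strand, 5 listed starts) had no counts in any library and 26 and 30 CG pairs. Also at 0 counts in each library, FLT3 had 20 CG pairs and NTRK2 had 6, and their windows are not shown.
AXL: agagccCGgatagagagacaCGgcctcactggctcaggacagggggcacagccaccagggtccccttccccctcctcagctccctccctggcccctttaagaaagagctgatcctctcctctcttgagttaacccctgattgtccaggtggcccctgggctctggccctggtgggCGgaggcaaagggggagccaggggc
DDR2: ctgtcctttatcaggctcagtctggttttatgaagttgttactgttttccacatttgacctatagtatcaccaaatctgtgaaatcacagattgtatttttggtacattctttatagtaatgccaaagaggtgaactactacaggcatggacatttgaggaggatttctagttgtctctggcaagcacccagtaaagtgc
MET: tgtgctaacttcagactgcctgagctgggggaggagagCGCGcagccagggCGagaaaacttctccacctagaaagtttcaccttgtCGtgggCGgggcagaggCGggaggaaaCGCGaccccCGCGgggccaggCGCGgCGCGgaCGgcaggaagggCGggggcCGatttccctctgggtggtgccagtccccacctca
KIT: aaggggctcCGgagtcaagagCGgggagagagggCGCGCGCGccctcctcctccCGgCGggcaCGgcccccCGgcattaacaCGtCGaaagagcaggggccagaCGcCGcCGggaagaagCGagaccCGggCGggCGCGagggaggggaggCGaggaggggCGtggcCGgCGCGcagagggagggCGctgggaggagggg
FGFR2: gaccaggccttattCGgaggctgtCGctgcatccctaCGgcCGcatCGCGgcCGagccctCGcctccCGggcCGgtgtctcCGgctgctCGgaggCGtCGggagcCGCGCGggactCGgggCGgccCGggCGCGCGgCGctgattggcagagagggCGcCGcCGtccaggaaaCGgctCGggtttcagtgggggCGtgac

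CSF1R lies directly behind PDGFRB on the chromosome, and their counts moved together. Both genes are on the minus strand of chromosome 5, with 464 bases between the end of PDGFRB at 150113837 and the start of CSF1R at 150113372. PDGFRB had 10.9, 11.2 and 10.6 times the counts of CSF1R in libraries 1, 2 and 3 (10.9 ± 0.305, SD, n = 3), while CSF1R itself ranged 1.596-fold in CPM and PDGFRB 1.64-fold. Per kilobase the ratio was 7.87 ± 0.220. Of the 17 other detected receptors, CSF1R had the steadiest ratio to PDGFRB (SD of the log2 ratio 0.0404), and the next was DDR1 (0.129). This comparison was chosen after the values were seen, and the ranking was not tested against counting error. The window before the most upstream listed CSF1R start lies inside the 464 bases (chr5:150113416-150113615, minus strand, 2 listed starts) and is shown because it is part of the sequence between the genes.
CSF1R: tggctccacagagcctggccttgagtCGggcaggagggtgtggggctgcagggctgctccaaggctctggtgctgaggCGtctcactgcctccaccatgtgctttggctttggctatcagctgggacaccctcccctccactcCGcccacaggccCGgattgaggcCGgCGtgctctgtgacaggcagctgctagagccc
Whether reads at CSF1R came from its own start or from transcripts that began at PDGFRB was not tested. The longest protein-coding transcripts of CSF1R and PDGFRB also had similar GC content (57.3% and 57.6%). Its part in the steady ratio was not tested. The other members within 1 Mb of each other were mostly undetected. PDGFRA, KIT and KDR lie on chromosome 4 and FLT3 and FLT1 on chromosome 13, all below detection. LTK, with 3 counts in all, lies 43787 bases from TYRO3 on the opposite strand.

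Markers of the cells in which these receptors are best known were mostly near 0. Of 10 blood cell markers 2 were detected, CD34 at 0.467 ± 0.0313 RPKM and PTPRC at 0.225 ± 0.0841 (SD, n = 3). SPI1, the defining transcription factor of macrophages, had 0, 0 and 1 counts beside the CSF1R values above, and the summed level of the list was 0.884 to 1.19 RPKM. Of 10 endothelial markers 3 were detected: EGFL7 at 3.30 ± 0.595 RPKM, ESAM at 0.651 ± 0.0533 and PECAM1 at 0.161 ± 0.0340. CDH5, the endothelial cadherin, had 0, 5 and 9 counts and CLDN5 and PLVAP had none, beside TIE1 at 2.12 RPKM, and the list summed to 3.51 to 4.92 RPKM. Of 10 neuron and glia markers 1 was detected (SNAP25, 2.09 ± 0.130 RPKM), with summed levels of 2.26 to 2.48 RPKM and RBFOX3 at 0 counts, and of 8 muscle markers none was, with sums of 0.309 to 0.443 RPKM. The label of a pigment epithelial line was met in part, with 5 of 11 pigment epithelium markers detected. OTX2 (5.47 RPKM) and MITF (3.05 RPKM) were highest and SERPINF1 (0.402 RPKM) lowest of these, and TYR, DCT and TTR had 0 counts. Of 9 markers of mesenchymal and simple epithelial lines 7 were detected, from VIM (1518 RPKM) and FN1 (570) down to KRT7 (7.99). CDH1 had 0, 5 and 5 counts and EPCAM had 0, 2 and 3.

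The listed ligands fell into those that the cells also transcribed and those they did not. EGF family ligands were left out of the list except NRG1 to NRG4. No ligand was listed for EGFR, ERBB2, DDR1, DDR2, PTK7, TIE1 or STYK1. Among 48 listed ligands, 24 passed detection (median 9.20 RPKM). The highest were GAS6 (47.6 ± 6.13 RPKM, SD, n = 3) and AGRN (42.5 ± 6.95), and PGF was the lowest (0.576 ± 0.310). GAS6, the ligand of AXL and TYRO3, stood at 40.8, 52.7 and 49.2 RPKM, and the other TYRO3 ligand, PROS1, at 8.99 ± 1.68. For FGFR1, FGF1 stood at 18.1 ± 1.69, FGF2 at 12.1 ± 1.53 and FGF5 at 10.6 ± 3.998 RPKM. WNT5A (16.2 ± 1.04 RPKM) stood beside ROR1 and RYK. CSF1 (17.5 ± 1.70 RPKM) stood above its receptor CSF1R, and MST1 (1.10 ± 0.0541) above MST1R.

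For MET, IGF1R and INSR no listed ligand was detected, since HGF, IGF1, IGF2 and INS had 0 counts in each library. PDGFRB likewise had low ligand values, with PDGFB at 13, 11 and 11 counts and PDGFD at 29, 61 and 24. Other ligands were detected while their receptors were not. PDGFC (27.7 ± 0.279 RPKM) and PDGFA (9.06 ± 1.14) bind PDGFRA, VEGFB (36.8 ± 7.87), VEGFC (15.7 ± 0.987) and VEGFA (5.50 ± 0.962) bind VEGF receptors, and KITLG (8.60 ± 0.727) binds KIT. AGRN acts through MUSK and its partner LRP4 (3.43 ± 0.266 RPKM). At various levels, GDNF (9.35 ± 0.518), NRG1 (5.04 ± 0.256), BDNF (2.39 ± 0.0407) and ANGPT1 (0.696 ± 0.119) stood beside RET, ERBB3 and ERBB4, NTRK2 and TEK, none of which was detected.

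**Figure D3:**
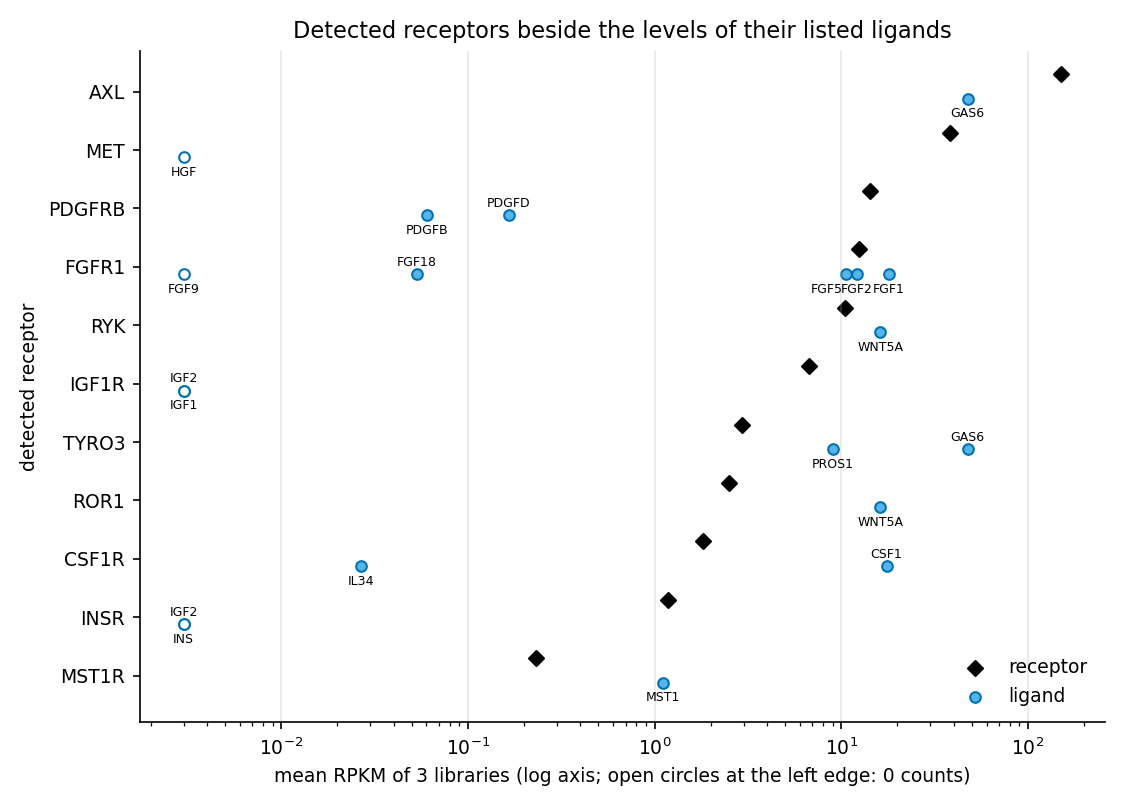
Mean RPKM of 3 libraries on a log axis for 11 detected receptors (black diamonds) and their listed ligands (blue circles), with open circles at the left edge for ligands at 0 counts. GAS6 stands at 47.6 RPKM below AXL at 150.1, whereas HGF, the ligand of MET, has 0 counts.

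Partners and downstream genes of the receptors are read here against the 57.7% of protein-coding genes detected. Of 23 co-receptors and modulators 15 were detected, a share near that background, from the heparan sulfate proteoglycan SDC1 (139.2 ± 12.5 RPKM) and the hyaluronan receptor CD44 (68.9 ± 1.86) down to LRP4. Of 35 adaptor and proximal signalling genes 30 were detected, led by SHC1 (135.1 ± 10.5 RPKM), an adaptor that links receptors to RAS, and PTPN11 (44.0 ± 2.41), the phosphatase SHP2, with GRB7 lowest (0.709 ± 0.0629). Of 28 genes that attenuate receptors 26 were detected, from the ubiquitin ligase STUB1 (37.9 ± 0.394 RPKM) and the EGFR inhibitor ERRFI1 (29.4 ± 10.02) down to LRIG2 (0.908 ± 0.157).

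Most of the tested receptor genes differed between libraries by more than counting error, as did most of all tested genes. The chi-square test of each gene's 3 counts against the scaled library sizes covered 16293 genes whose counts averaged 10 or more. Its p-values were adjusted by Benjamini-Hochberg, and 0.05 was the threshold. It called 19 of the 26 receptors tested (73.1%), against 68.6% of all tested genes, a share near the background. The other 13 receptors had too few counts. Among detected genes it called 15 of 18 receptors, against 75.6% of all. RYK (adjusted p = 0.234), TIE1 (0.138) and MST1R (0.964) did not pass this chi-square test, and EGFR (0.0460) and FGFR1 (0.0424) passed narrowly. The call of EGFR ended with unscaled totals (0.755, chi-square test), with no filter on low counts (0.0627) and without library 1 (0.629) or library 2 (0.130). That of FGFR1 ended with DESeq2 size factors (0.0576), with no filter (0.0585) and without library 1 (0.0681) or library 2 (0.921). The calls of EGFR (0.902) and FGFR1 (0.907) also ended in this chi-square test with an extra coefficient of variation of 0.05.

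Library 1 was the lowest for most of the called receptors. Of the 18 detected receptors 10 were called with library 1 lowest, against 37.8% of all detected genes, and 1, EGFR, was called with library 1 highest, against 29.5%. The widest differences were those of CSF1R, PDGFRB and STYK1, with log2 values of -0.61, -0.61 and -0.48 for library 1 against the mean of libraries 2 and 3. PDGFRB stood at 75.9, 124.1 and 107.1 CPM (chi-square test, adjusted p = 2.66e-131). TYRO3 (-0.39), DDR1 (-0.38), INSR (-0.35), ERBB2 (-0.29), PTK7 (-0.29), AXL (-0.18) and MET (-0.14) were the others. Over the 18 detected receptors the median was -0.16, against -0.03 over all detected genes.

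**Figure D4:**
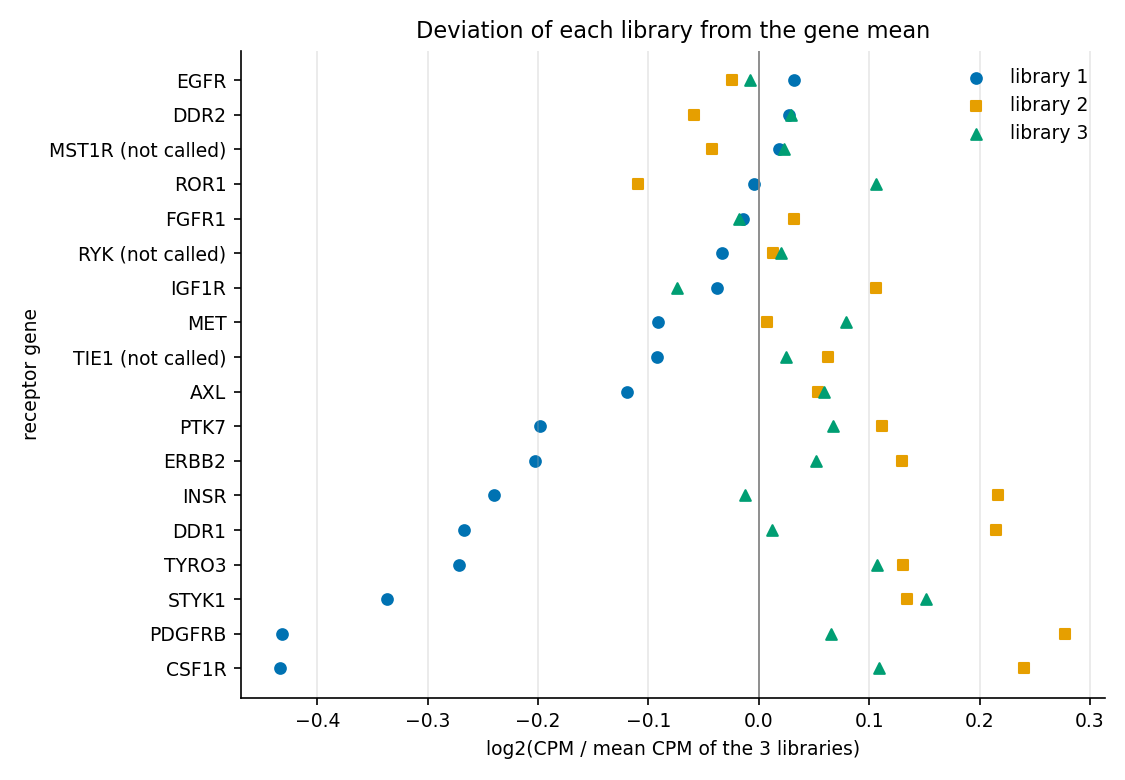
Deviation of each library from the gene's mean CPM (log2) for the 18 detected receptors, with 1 symbol per library and the genes that did not pass the chi-square test marked as not called. Library 1 lies to the left for CSF1R, PDGFRB and STYK1, and the 3 libraries lie close together for EGFR, FGFR1 and RYK.

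Without library 1, the chi-square test called 9 of 25 receptors tested, against 28.1% of all genes. These were MET, DDR2, DDR1, PDGFRB, ERBB2, IGF1R, ROR1, INSR and ERBB4. AXL (adjusted p = 0.754 in this chi-square test), PTK7 (0.115), TYRO3 (0.767), CSF1R (0.265) and STYK1 (0.944) no longer passed, so their calls rested on library 1. PDGFRB (3.06e-14) and DDR1 (1.26e-18) still passed, both higher in library 2 than in library 3. Without library 2 it called 12 of 25, against 56.8%. DDR2 (0.931, chi-square test), IGF1R (0.326), ROR1 (0.174) and ERBB4 (0.677) were among those that no longer passed there, and ROR1 (0.177) and FGFR4 (0.126) did not pass without library 3. When a further coefficient of variation of 0.05 was granted to every gene, 12 of 26 receptors were called, against 32.7% of all genes, and AXL (0.268) and MET (0.388) were not among them by this chi-square test.

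Some receptors below detection also differed between libraries. Of the 8 tested, 4 were called, against 44.6% of all tested genes below detection. KDR (adjusted p = 1.12e-10, chi-square test), ERBB4 (0.00348) and FGFR4 (0.0171) were highest in library 1, and PDGFRA (0.000796), with 1 count in library 1, was lowest there. Without library 1, KDR (adjusted p = 0.287, chi-square test) and PDGFRA (0.943) no longer passed, ERBB4 still did (0.0163), and FGFR4 had too few counts to be tested. Of all called genes below detection 49.9% were highest in library 1 and 41.5% lowest.

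Genes of the pathway lists also differed between libraries, in both directions. Of the ligands 23 of 29 tested were called, 12 highest and 6 lowest in library 1. Of the co-receptors 16 of 17 were called (6 highest, 10 lowest), of the adaptors 29 of 32 (12 and 15), and of the attenuating genes 22 of 27 (12 and 10). Over all genes 68.6% of those tested were called, and 75.6% of those detected, and these lists were not tested against that background. The median differences of library 1 for their detected genes were 0.09, -0.07, -0.04 and 0.07 on the log2 scale. ERRFI1, which is induced by growth factor signalling, was higher in library 1 (log2 difference 0.79), and the AXL ligand GAS6 was lower there (log2 difference -0.32). PGF, a ligand of FLT1, had 67, 301 and 186 counts and was lowest in library 1.

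The differences of library 1 varied with the GC content of the transcripts, measured on the longest protein-coding transcript of each gene. The 11 detected receptors with at least 50% GC had a median log2 difference of -0.29 for library 1, and the 7 with less had -0.05. Over detected protein-coding genes the medians were -0.13 (5123 genes) and 0.02 (6381 genes). Across the 18 receptors Pearson's r between GC content and the difference was -0.37 and Spearman's rho -0.38, and over 11504 genes they were -0.27 and -0.30. These points share the same 3 libraries, and genes are not independent replicates. The difference between libraries 2 and 3 also followed GC content, with rho 0.58 across the receptors and 0.54 across genes. With library factors that follow GC content, the difference of library 1 was -0.48 for PDGFRB, -0.49 for CSF1R, -0.48 for STYK1 and -0.07 for AXL. It was -0.22 for DDR1, -0.14 for PTK7 and -0.15 for ERBB2, closer to 0 than with TMM factors alone. For MET (-0.16), EGFR (0.07), FGFR1 (0.09) and MST1R (0.17) it was further from 0 than with TMM factors alone. DDR2 no longer passed (adjusted p = 0.182, chi-square test). What set library 1 apart was not tested.

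**Figure D5:**
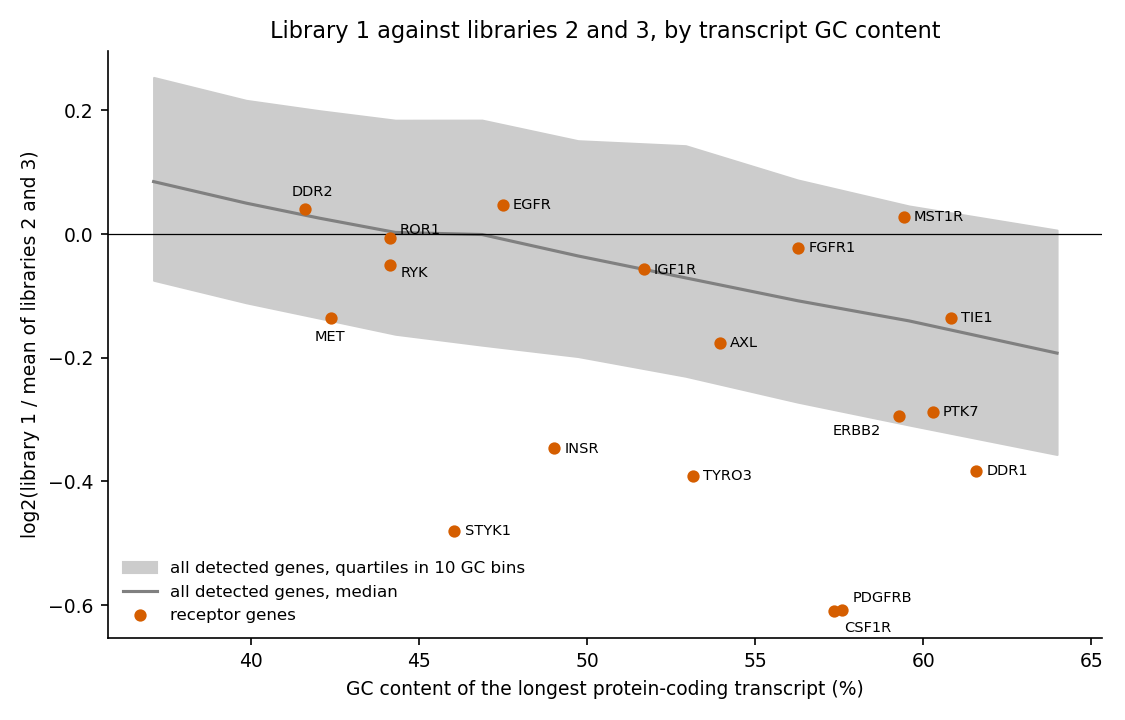
Log2 ratio of library 1 to the mean of libraries 2 and 3 against the GC content (%) of the longest protein-coding transcript, for the 18 detected receptors (orange points) and for all detected genes (grey line, median; grey band, quartiles in 10 bins of GC). PDGFRB and CSF1R lie together at -0.61, below the band.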

How the data were processed

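RNA-seq counts of 39 receptor tyrosine kinase genes were read in 3 libraries of 1 group. The authors deposited raw read counts for each gene. Tools listed in the submitters' processing notes, with no roles, are STAR 2.5.2a, featureCounts 1.6.2 and cutadapt 1.16, on build hg38. For annotation, strand setting and ambiguous reads, nothing is given in the sources used here. All 58735 identifiers matched GENCODE release 29, which gave positions, exon lengths and transcript GC. A further 6 per-sample columns had no matching label and were left out of every step.

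TMM factors came from edgeR 4.0.16 in R 4.3.3. RPKM uses the union of annotated exons. Medians of levels use log2(RPKM + 0.1) and pair ratios add 0.5 count. The chi-square test (2 degrees of freedom) took genes averaging 10 or more counts and was adjusted by Benjamini-Hochberg. It sets the spread against counting error alone, and reads are not independent molecules, so floors of 3 counts also cover counting error only. For the spread between the 3 libraries, counts of 16293 genes were also simulated with counting error alone. There the test recovered 65% of genes raised 1.25-fold and 89% of those raised 2-fold in library 1. It called 0.0746% of unchanged genes there. The real libraries varied further (common biological coefficient of variation 0.135), so these rates do not carry over to them.

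The members and lists were chosen with earlier results of these data known. The rule for named genes took all 39 members, the 2 highest and the lowest detected gene of each list, and the highest listed ligand of each detected receptor that had one. Other ligands and markers, the GC comparison and the CSF1R ratio were chosen after values were seen. Protein features were not analysed here. Alternatives covered library scaling (DESeq2 1.42.0 size factors or totals), filters, length, pseudocounts and leaving out each library.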

Additional observations from a re-analysis of the deposited data

How the results depend on the processing

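The count of 18 detected receptors ranged from 16 at a CPM of at least 5 to 20 at 0.5, and stayed at 18 with DESeq2 size factors, with unscaled totals and without any 1 library. Of 26 tested receptors 19 had a spread beyond counting error. That count was 18 with DESeq2 size factors, 20 with unscaled totals and 20 with factors that follow GC content. Over all tested genes the shares called were 68.6%, 68.6%, 69.3% and 64.7% in that order, the main setting first. With no filter on low counts 20 of 34 receptors were called, against 48.0% of all genes. An extra coefficient of variation of 0.05 gave 12 of 26, against 32.7%. Leaving out library 1, 2 or 3 gave 9 of 25, 12 of 25 and 18 of 26 receptors, against 28.1%, 56.8% and 60.6%. Over all genes the calls were 11182, against 5322 with the extra coefficient, 4581 without library 1 and 9159 without library 2. Under factors that follow GC content, the log2 difference of library 1 went from -0.02 to 0.09 for FGFR1 and from -0.06 to about 0 for IGF1R. Their adjusted p of 1.31e-05 and 5.32e-06 (chi-square test) are for any spread among the libraries, not for that direction. The median log2 level of 3.26 moved to 6.51 without length (CPM), 4.13 with the longest transcript, 2.94 at a CPM of at least 0.5 and 3.53 at 5. The order of 12 pairs was kept in all libraries under each alternative but the longest transcript. There 11 pairs had 1 order across libraries. Among these 11, DDR1 and DDR2 had the reverse of their main order (log2 ratio 0.48). EGFR and ERBB2 differed in order between libraries there (log2 ratio -0.12). The share of the top 5 was 75.9%. It was 68.0% of counts without length, where the 5 were AXL, MET, DDR2, FGFR1 and EGFR, and 69.9% with the longest transcript, where they were AXL, MET, PTK7, DDR1 and RYK. For AXL, MET, DDR2, PTK7 and DDR1 it was 75.7% to 76.2% when 1 library was left out. The GC and longest transcript alternatives were chosen after seeing the data. No paired analysis was possible because only 1 group has labels. Depth limits the genes under about 10 counts per library, which were not tested.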
